A study of Homo sapiens with 12 samples.

Results

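Voltage-gated calcium channels and inositol trisphosphate (IP3) receptors were described here through 9 genes chosen by name: 6 channel pores (CACNA1A, CACNA1B, CACNA1C, CACNA1D, CACNA1G and CACNA1H) and 3 receptors (ITPR1, ITPR2 and ITPR3). All 9 stood among the 37184 genes counted in experiment 1 and the 31910 counted in experiment 2. CACNA1H and ITPR1 carried no symbol in the gene tables and were found by their Ensembl identifiers. Of the circular RNAs (circRNAs), 40 of 29693 in experiment 1 and 28 of 26796 in experiment 2 had a member as host gene.

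Total RNA of HEK293 cells, a human embryonic kidney line, was sequenced in 2 experiments of 6 libraries, to compare cells with and without added RBFOX1, an RNA-binding protein that regulates splicing. The inducible line goes back to a clone that lacks normal RBFOX2 (a close relative of RBFOX1) and carried an HA-Flag-tagged Rbfox1 transgene that doxycycline switches on. Experiment 1 compared 3 libraries of this line without doxycycline (uninduced) with 3 libraries of the line on doxycycline (induced), for which the labels give 0.5 µg/ml and harvest after 2 weeks. Experiment 2 compared 3 libraries of parental HEK293 cells on doxycycline with 3 libraries of the induced line, so its groups differed in the transgene, in the RBFOX2 deficiency and in being a clone. In experiment 1 doxycycline and RBFOX1 cannot be told apart. The labels do not say that replicates were separate cultures, so p-values cover the spread of the samples as deposited, and that spread may be technical.

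The CACNA1 genes encode the pore of channels that open when the membrane is depolarized and let calcium into the cell. They fall into P/Q-type (CACNA1A), N-type (CACNA1B), L-type (CACNA1C and CACNA1D) and low-voltage T-type (CACNA1G and CACNA1H) channels, and are best known from neurons, heart and endocrine cells. The ITPR genes encode the channels of the endoplasmic reticulum that release stored calcium when phospholipase C makes IP3, which most cell types use, kidney epithelium included.

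Gene counts summed to between 34025315 and 55298749 per library in experiment 1 and between 37663525 and 50261916 in experiment 2, and back-splice reads to between 10004 and 22661 and between 18945 and 28691. RBFOX1 followed its labels: its mean was 3.77 CPM (counts scaled to library size) in uninduced and 39.2 in induced cells, and 0 reads in parental against 40.2 CPM in induced cells. RBFOX2 stood at 53.7 CPM in both groups of experiment 1, at 183 in parental cells and at 50.8 in the induced cells beside them. Uninduced library 3 stood apart, with a chi-square per degree of freedom of 34.9 to 39.8 against its replicates, where the other pairs of replicates gave 5.74 to 19.6. The mitochondrial ribosomal RNA MT-RNR2 took 21.7 to 24.1% of the counts in experiment 1 and 0.0286 to 0.0638% in experiment 2. Of the markers of the HEK293 line, VIM (779 to 913 CPM over the group means) and LIN28B (89.0 to 239 CPM) were high, PAX8 was near 0, and the neurofilament gene NEFM stood at 36.0 CPM in parental cells and at 0.504 CPM in the induced cells beside them. All 8 markers of the line summed to 1027 to 1165 CPM in uninduced and 1023 to 1102 in induced libraries, with 1 of 6 tested called higher and 1 lower. In experiment 2 they summed to 1193 to 1413 CPM in parental and 1029 to 1105 in induced libraries, with 0 of 6 tested called higher and 4 lower. MYH6, MYH7 and TNNT2, among the markers of heart and skeletal muscle, were at or near 0 in all groups. The summed CPM of 8 neuronal markers was 39.4 to 42.4 in uninduced against 35.8 to 37.5 in induced libraries, where 2 of 6 tested were called lower, and 46.7 to 49.4 in parental against 48.4 to 52.2 in induced libraries, where 2 of 7 tested were called higher and 2 lower. Fibroblast markers summed to 6.34 to 6.77 CPM in uninduced, 4.08 to 4.71 in induced (2 of 3 tested lower), 9.56 to 11.2 in parental and 3.73 to 4.02 in the induced libraries beside them (3 of 4 lower). Haematopoietic markers summed to 2.84 to 3.19, 1.92 to 2.60, 5.70 to 6.51 and 2.93 to 3.86 CPM in the same order, muscle markers to 1.60 to 2.05, 1.44 to 1.65, 1.45 to 2.12 and 1.68 to 1.89, and hepatocyte markers to under 0.6 in every library. Of the haematopoietic markers, 1 of 2 tested was called lower in experiment 1 and 2 of 4 in experiment 2. Of the muscle markers, 1 of 2 tested was called higher in each experiment. Among all genes tested, 10.5% were called higher and 10.4% lower in experiment 1, and 32.1% higher and 32.9% lower in experiment 2. The part of these markers in the results below was not tested.

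The fold changes of the gene counts had opposite signs in the experiments. In experiment 2, 6 of the 9 members rose, 2 were not called and CACNA1A was too low to test, where 32.1% of 17945 genes tested were called higher and 32.9% lower. ITPR3 and CACNA1B rose the most, 2.41-fold and 2.22-fold. In experiment 1, 3 members fell (CACNA1C, CACNA1H and ITPR2), 5 were not called and CACNA1A was again too low, where 10.4% of 18978 genes were called lower and 10.5% higher. That count was 1 without uninduced library 2, induced library 1 or induced library 3. Called here means a Benjamini-Hochberg adjusted p under 0.05 in the quasi-likelihood test of edgeR over all genes. The 8 tested members had a median log2 fold change of 0.62 in experiment 2 and -0.30 in experiment 1, beside -0.0091 and 0.0026 over all genes tested.

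**Figure D1:**
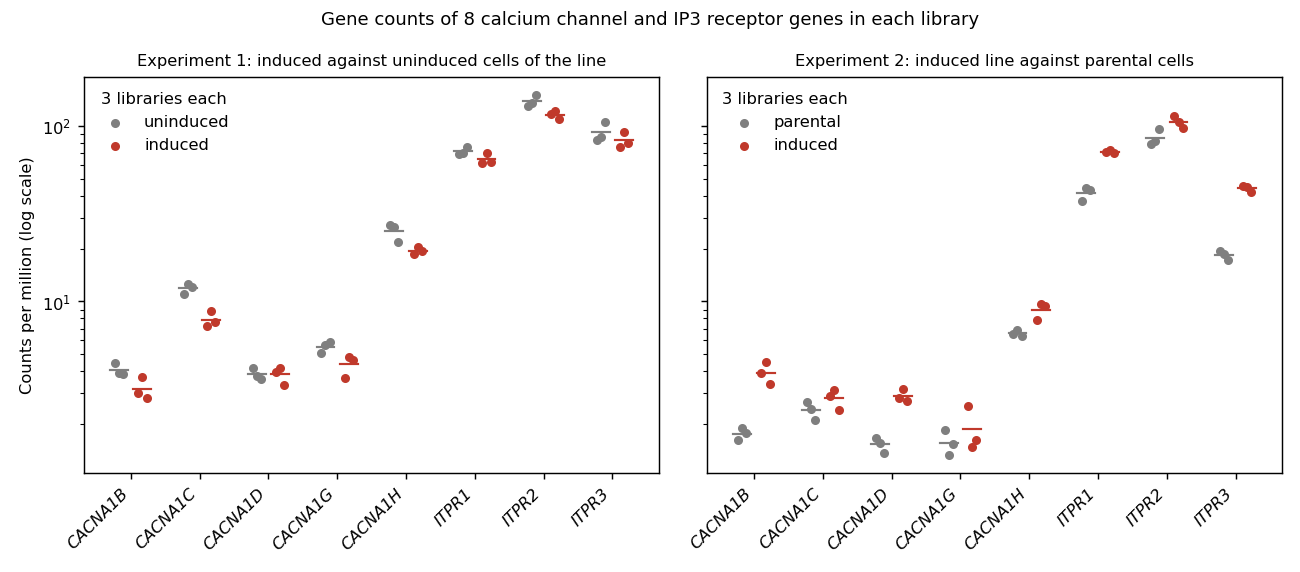
CPM (log axis) of the 8 tested members in each library, experiment 1 on the left and experiment 2 on the right; points are libraries, short lines are means, grey marks the control group and red the induced group. In experiment 2 all 3 induced libraries lie above all 3 parental libraries for 6 genes, and in experiment 1 all induced libraries lie below all uninduced libraries for 5.

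Among the IP3 receptors, ITPR3 (ENSG00000096433) differed most between parental and induced cells. The parental libraries 1, 2 and 3 held 19.4, 18.6 and 17.2 CPM of it and the induced libraries 45.8, 44.9 and 42.0. The groups were far apart, and the least of the induced libraries was above every parental library. The log2 fold change was 1.27 (SE 0.07, edgeR adjusted p = 5.10e-13). In experiment 1 the uninduced libraries held 83.2, 87.1 and 106 CPM and the induced libraries 76.6, 93.3 and 79.9. These groups overlapped, with uninduced library 3 the highest, and the difference of -0.15 (SE 0.10) was not called (edgeR adjusted p = 0.345). Without uninduced library 3 it was -0.032. The table holds counts from bulk RNA, so fewer cells with a transcript and less of it per cell cannot be told apart, here and for every gene below.

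ITPR1 (ENSG00000150995), the type 1 receptor that dominates in cerebellar neurons, also rose against parental cells. Parental libraries held 37.6, 44.5 and 43.2 CPM and induced libraries 71.0, 73.6 and 70.5. No libraries overlapped, and the induced libraries lay within a narrow band. The log2 fold change was 0.78 (SE 0.06, edgeR adjusted p = 3.34e-10). In experiment 1 uninduced libraries held 69.1, 70.0 and 76.6 CPM and induced libraries 61.8, 70.6 and 62.9, and induced library 2 reached into the uninduced range. That difference of -0.14 (SE 0.07) was not called (edgeR adjusted p = 0.168). An antisense gene, ITPR1-AS1, was not called in either experiment, and since strand is not stated for the counting, reads of the pair cannot be told apart where they overlap.

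ITPR2 (ENSG00000123104), the type 2 receptor known from heart, liver and glia, was called in both experiments and in opposite directions. Parental libraries held 78.8, 82.9 and 97.0 CPM and induced libraries 115, 106 and 98.4. The groups did not overlap, but parental library 3 and induced library 3 were close. ITPR2 rose by 0.30 on the log2 scale (SE 0.07, edgeR adjusted p = 0.000553). In experiment 1 uninduced libraries held 131, 136 and 151 CPM and induced libraries 118, 122 and 110.4, again without overlap and by a small margin. There it fell by 0.25 (SE 0.07, edgeR adjusted p = 0.0275). This call was lost without uninduced library 2 (adjusted p = 0.0638), induced library 1 (0.0932) or induced library 3 (0.133) in the same edgeR test. It held without uninduced library 3, at -0.19 (edgeR adjusted p = 0.0179).

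The N-type pore gene CACNA1B (ENSG00000148408), which supplies presynaptic calcium in neurons, rose against parental cells. Parental libraries held 1.62, 1.90 and 1.77 CPM and induced libraries 3.91, 4.51 and 3.36. Every induced library was above every parental library, at 66 to 171 reads per library. The log2 fold change was 1.15 (SE 0.16, edgeR adjusted p = 2.78e-06). In experiment 1 the uninduced libraries held 4.43, 3.93 and 3.85 CPM and the induced libraries 3.00, 3.68 and 2.82. The groups did not overlap, yet the difference of -0.36 (SE 0.13) was not called (edgeR adjusted p = 0.0735). It was called without uninduced library 3 (edgeR adjusted p = 0.0343) and without induced library 2 (0.0407).

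The L-type genes went separate ways. CACNA1C (ENSG00000151067), the pore of the main cardiac L-type channel, fell on induction: uninduced libraries held 11.1, 12.6 and 12.2 CPM and induced libraries 7.23, 8.81 and 7.59. The groups were well apart, and the fold change was 0.659, or -0.60 on the log2 scale (SE 0.10, edgeR adjusted p = 0.00369). The call held with each library left out in turn, at log2 values from -0.69 to -0.54 (edgeR adjusted p up to 0.0270). In experiment 2 parental libraries held 2.68, 2.43 and 2.11 CPM of CACNA1C and induced libraries 2.88, 3.14 and 2.40. These groups overlapped, and the difference of 0.23 (SE 0.17) was not called (edgeR adjusted p = 0.246).

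CACNA1D (ENSG00000157388), the L-type pore of endocrine and sinoatrial cells, showed the reverse. It held 4.17, 3.74 and 3.62 CPM in uninduced and 3.95, 4.19 and 3.35 in induced libraries. The ranges overlapped almost wholly, and the log2 difference was -0.0075 (SE 0.12, edgeR adjusted p = 0.972). In experiment 2 parental libraries held 1.67, 1.57 and 1.37 CPM and induced libraries 2.82, 3.16 and 2.69, with no overlap. CACNA1D rose there by 0.92 on the log2 scale (SE 0.18, edgeR adjusted p = 0.000116).

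Of the T-type genes, CACNA1H (ENSG00000196557) was called in both experiments. Uninduced libraries held 27.2, 26.7 and 21.9 CPM and induced libraries 18.7, 20.4 and 19.4. Induced libraries were lower without overlap, although uninduced library 3 came near them. CACNA1H fell by 0.38 on the log2 scale (SE 0.09, edgeR adjusted p = 0.0175). The call was lost without uninduced library 1 (edgeR adjusted p = 0.0605), uninduced library 2 (0.0715), induced library 1 (0.0886) or induced library 3 (0.0693), and without uninduced library 3 the value was -0.47 (0.000228). In experiment 2 parental libraries held 6.49, 6.91 and 6.32 CPM and induced libraries 7.88, 9.70 and 9.38. Here the induced libraries were the higher ones, without overlap, by 0.45 (SE 0.10, edgeR adjusted p = 0.000706).

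CACNA1G (ENSG00000006283), the other T-type pore among the members, was called in neither experiment. It held 5.11, 5.64 and 5.84 CPM in uninduced against 3.65, 4.80 and 4.66 in induced libraries, a difference of -0.34 (SE 0.12, edgeR adjusted p = 0.0767) between groups that did not overlap. In experiment 2 it held 1.84, 1.32 and 1.53 CPM in parental against 2.53, 1.48 and 1.63 in induced libraries. Induced library 1 stood above the rest, and the difference of 0.27 (SE 0.23, edgeR adjusted p = 0.321) was -0.0022 without it. The P/Q-type gene CACNA1A (ENSG00000141837), known from Purkinje cells and motor nerve endings, had 0 to 5 reads in every library, so no difference was detectable at this depth.

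**Figure D2:**
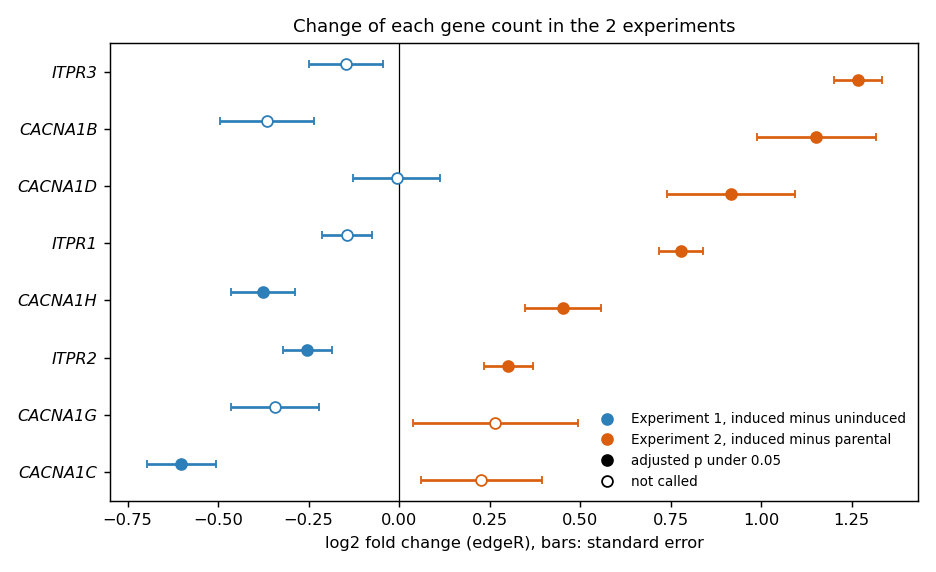
log2 fold change of each tested member with its standard error, experiment 1 in blue and experiment 2 in orange; filled points passed an adjusted p of 0.05. All 8 values of experiment 2 lie above 0 and all 8 of experiment 1 below it, with CACNA1D of experiment 1 at -0.0075.

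Counted by libraries alone, 5 members of experiment 1 had every induced library below every uninduced library (CACNA1B, CACNA1C, CACNA1G, CACNA1H and ITPR2), where 19.6% of genes tested did. In experiment 2, 6 members had every induced library above every parental library, where 33.3% of genes tested did. Both experiments were set against each other in a fit over all 12 libraries. The log2 effect of experiment 2 was called greater than that of experiment 1 for 7 of the 8 tested members, where 25.9% of 19942 genes were called in that direction. The difference was largest for CACNA1B, at 1.52 (SE 0.20, edgeR adjusted p = 4.36e-06), and for ITPR3, at 1.41 (SE 0.12, edgeR adjusted p = 2.90e-08). It was smallest for ITPR2, at 0.56 (SE 0.11, edgeR adjusted p = 0.000271). For CACNA1G it was 0.61 (SE 0.25), which was not called (edgeR adjusted p = 0.0519). Without induced library 2 of experiment 2 that value was 0.73 and was called (edgeR adjusted p = 0.0266), and without induced library 1 it was 0.31 (0.302). The call also came without uninduced library 1 (0.0468) or induced library 2 of experiment 1 (0.0483), and without parental library 1 (0.0385) or induced library 3 of experiment 2 (0.0490).

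On the common scale of the 12 libraries, the spacing of the groups differed between genes. ITPR1 stood at 77.1 ± 4.61 CPM in uninduced cells, 69.7 ± 4.77 in induced cells of experiment 1, 66.8 ± 1.25 in induced cells of experiment 2 and 38.9 ± 3.30 in parental cells (mean ± SD, n = 3 each). The induced groups of ITPR1 did not differ beyond their spread (log2 difference -0.061, edgeR adjusted p = 0.431), and parental cells stood alone at the bottom. CACNA1B had the same lone parental group, at 1.64 ± 0.126 CPM, below 3.40 ± 0.472 and 3.66 ± 0.516 in the induced cells of experiments 1 and 2 and 4.36 ± 0.326 in uninduced cells. ITPR3 instead had its groups in 3 tiers: 98.9 ± 13.5 and 89.2 ± 8.90 CPM in uninduced and induced cells of experiment 1, 41.2 ± 1.63 in induced cells of experiment 2 and 17.2 ± 1.09 in parental cells.

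For CACNA1C the widest gap between neighbouring group means lay between the experiments. Uninduced and induced cells of experiment 1 held 12.8 ± 0.837 and 8.44 ± 0.832 CPM, and induced and parental cells of experiment 2 held 2.61 ± 0.334 and 2.24 ± 0.277. CACNA1H (27.1, 20.9, 8.38 and 6.13 CPM) and CACNA1G (5.93, 4.68, 1.75 and 1.46 CPM) had their widest gap in the same place. The order of group means itself was not particular to these genes. ITPR1 and ITPR3 shared it, as did ITPR2 (149, 125, 99.2 and 80.4 CPM) and CACNA1D (4.12, 4.11, 2.70 and 1.43 CPM). CACNA1B alone had its induced groups the other way round. The induced cells of experiment 2 were lower than those of experiment 1 for 6 members, where 34.2% of genes tested were called lower, although line and agent were the same. The log2 differences were -1.69 for CACNA1C, -1.41 for CACNA1G, -1.32 for CACNA1H, -1.11 for ITPR3, -0.61 for CACNA1D and -0.33 for ITPR2. CACNA1B, at 0.11, and ITPR1 were not called. The experiment, with its different share of MT-RNR2, and any change of the cells cannot be told apart in these levels.

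After the mean of each experiment was taken off the log2 CPM, the members varied together to differing degrees over the 12 libraries, which include the group differences themselves. Pearson's r was 0.97 for ITPR1 with ITPR3, 0.96 for CACNA1B with ITPR1 and 0.93 for CACNA1D with ITPR3. It was 0.38 for the L-type pair CACNA1C and CACNA1D and 0.27 for the T-type pair CACNA1G and CACNA1H. The closest pair of all was thus a pair of IP3 receptors, but ITPR2 was less close to ITPR1 (0.78) and to ITPR3 (0.72). Among 17083 genes, FMN2 (r = 0.998) and GFOD1 (0.993) were most like ITPR3, VSTM4 (0.994) and ZNF451 (0.992) most like ITPR1, and FNDC3B and CDK18 (0.977 each) most like CACNA1B. Other genes of most similar pattern were ADAMTSL3 (0.981) for CACNA1D, SPATA6 (0.966) and TNKS (0.957) for CACNA1C, and GGT7 (0.965) and TAZ (0.963) for CACNA1H. CACNA1G had its closest genes, LNCOC1 (0.881) and KIAA1551 (0.872), at a lower r than any other member, and ITPR2 had ENSG00000258895 (0.974) and ZNF273 (0.971).

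The 4 genes that rose the most in experiment 2 are shown with the 250 bases before their start, since they moved together over the libraries. They were picked after their values were seen. RefSeq's promoter table (GRCh38.p14) held 6 of the 9 members, without ITPR2, CACNA1G and CACNA1H. Capitals mark the GC box (GGGCGG), the CCAAT box (CCAAT) and the TATA box (TATAAA), searched on both strands, with overlapping GC boxes counted separately.
ITPR3, chr6:33621072-33621321, plus strand: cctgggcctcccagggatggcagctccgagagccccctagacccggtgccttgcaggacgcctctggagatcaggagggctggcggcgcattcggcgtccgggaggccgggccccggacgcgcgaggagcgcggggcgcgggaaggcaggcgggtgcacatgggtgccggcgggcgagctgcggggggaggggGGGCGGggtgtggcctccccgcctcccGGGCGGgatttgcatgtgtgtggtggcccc
CACNA1B, chr9:137877532-137877781, plus strand: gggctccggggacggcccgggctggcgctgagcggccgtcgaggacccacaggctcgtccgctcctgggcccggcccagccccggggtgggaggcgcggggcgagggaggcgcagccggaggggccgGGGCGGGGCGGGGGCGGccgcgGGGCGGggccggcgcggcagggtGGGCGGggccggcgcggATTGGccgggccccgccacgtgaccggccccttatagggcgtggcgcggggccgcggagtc
CACNA1D, chr3:53494361-53494610, plus strand: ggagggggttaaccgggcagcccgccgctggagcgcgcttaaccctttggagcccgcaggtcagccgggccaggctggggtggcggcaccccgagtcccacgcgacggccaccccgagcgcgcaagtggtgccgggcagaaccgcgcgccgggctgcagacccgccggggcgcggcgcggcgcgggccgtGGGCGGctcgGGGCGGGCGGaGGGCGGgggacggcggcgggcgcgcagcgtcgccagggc
ITPR1, chr3:4493098-4493347, plus strand: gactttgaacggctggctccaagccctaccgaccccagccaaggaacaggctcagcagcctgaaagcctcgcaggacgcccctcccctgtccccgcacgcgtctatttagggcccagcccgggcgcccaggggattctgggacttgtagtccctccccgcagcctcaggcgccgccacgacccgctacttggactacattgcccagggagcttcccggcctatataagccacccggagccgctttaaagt
The window of CACNA1B held 5 GC boxes and 1 CCAAT box, that of CACNA1D 4 GC boxes and that of ITPR3 2. The ITPR1 window held none of the 3 motifs in these letters. GC boxes were found in 42.6%, CCAAT boxes in 32% and TATA boxes in 10.7% of all 35116 windows of that length. G and C made up 85.2% of the CACNA1B window, 81.6% of CACNA1D, 76.8% of ITPR3 and 64.8% of ITPR1, with a median of 58.0% over all windows. CACNA1C, which was not called in experiment 2, had 6 GC boxes and 85.6% G and C, so neither count set the 4 genes apart from it.

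The genes next to the members, up to 5 tested genes on each side in the RefSeq order, differed from member to member. In experiment 2, 8 of 9 neighbours of ITPR1 on chromosome 3 and 8 of 10 neighbours of ITPR2 on chromosome 12 were called higher, with median log2 fold changes of 0.57 and 0.53. Neighbours of ITPR3 had a median of 0.011 (3 higher and 3 lower of 10), those of CACNA1D -0.20 (2 higher and 6 lower of 10) and those of CACNA1H -0.67 (2 higher and 7 lower of 10). CACNA1B had 5 neighbours, with a median of 0.099 (2 higher and none lower). Over all genes tested in experiment 2, 32.1% were called higher and 32.9% lower. With at most 10 neighbours for each member, these shares are coarse. In experiment 1 the neighbours of CACNA1C had a median of 0.076, those of CACNA1H 0.022 and those of ITPR2 -0.12. The part of the neighbourhood in the members' values was not tested.

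ITPR2 gave most of the circular output of these genes, with 117 of 147 back-splice reads over the 12 libraries, 46 of 70 in experiment 1 and 71 of 77 in experiment 2. In a back-splice the end of an exon is joined backwards, to its own start or that of an exon before it, which leaves a closed RNA circle. Its reads fell on 41 distinct circRNAs. ITPR1 gave 9 with 18 reads, and CACNA1B, CACNA1C, CACNA1D and ITPR3 gave 1 to 3 circRNAs each with 2 to 4 reads. None was counted for CACNA1A, CACNA1G or CACNA1H.

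ITPR2 back-splice reads numbered 7, 14 and 2 in the uninduced libraries and 13, 7 and 3 in the induced libraries of experiment 1. In experiment 2 they numbered 5, 5 and 8 in parental and 30, 13 and 10 in induced libraries. The groups of experiment 1 overlapped, and those of experiment 2 did not, with induced library 1 far above the rest. Summed over the gene, the log2 fold change was 1.81 in experiment 2 (SE 0.54, edgeR adjusted p = 0.0389), where 0.936% of 2564 hosts were called higher. Without induced library 1 it was 1.2 and was not called (edgeR adjusted p = 0.562). The call was also lost without parental library 1 (0.137), 2 (0.149) or 3 (0.0853), and with DESeq2 (0.0677). In experiment 1 it was -0.11 (SE 0.49, edgeR adjusted p = 0.983), and none of 2207 hosts was called there by edgeR or DESeq2, against 84 at an unadjusted p under 0.05.

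The gene count of ITPR2 rose as well in experiment 2. Per 1000 gene reads there were 1.51 ± 0.159 back-splice reads in parental and 4.30 ± 2.30 in induced libraries (mean ± SD, n = 3). In a test of the back-splice sum against the gene count, the sum exceeded the host by 1.42 on the log2 scale (SE 0.62), which was not called (edgeR adjusted p = 0.614 over 2454 hosts, of which 0.0407% were called). In experiment 1 the same difference was 0.13 (SE 0.52, edgeR adjusted p = 0.993), and none of 2117 hosts was called by edgeR or limma-voom, against 80 at an unadjusted p under 0.05.

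**Figure D3:**
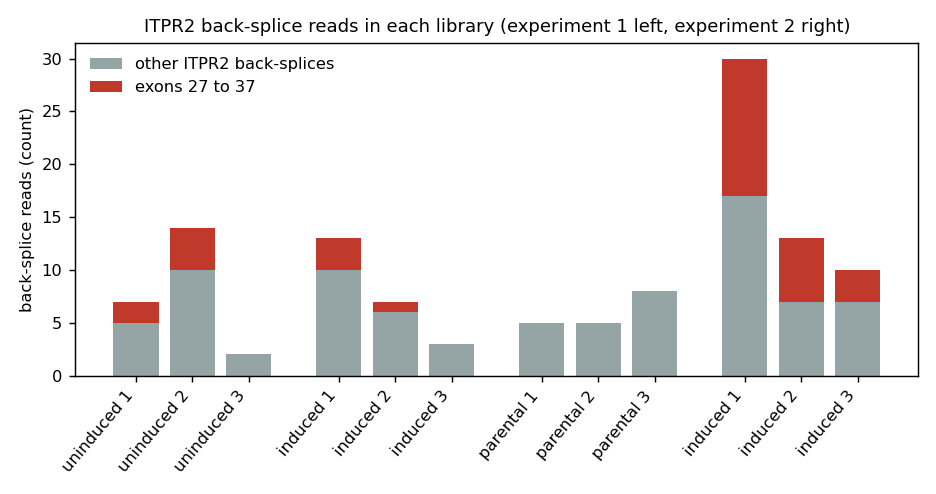
ITPR2 back-splice reads (counts) in each of the 12 libraries, with the junction of exons 27 to 37 in red and all others in grey. The parental libraries have none of the exon 27 to 37 reads, and the induced libraries of experiment 2 have 13, 6 and 3.

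A circle of 11 exons had more reads than any other ITPR2 circle in the induced cells of experiment 2, with 22 of 53. It joined the end of exon 37 to the start of exon 27 of the isoform ENST00000381340, spanning chr12:26703180-26755639 (GRCh37, minus strand), with 1611 bases of exons between introns of 18416 and 54986 bases. It had 0, 0 and 0 reads in parental and 13, 6 and 3 in induced libraries of experiment 2. Against a floor of 3 reads over the parental group, the pooled induced reads were 8.78-fold higher per gene count. The value was 5.39-fold without induced library 1, which held 13 of the 22 reads. Both values take the induced reads as exact, so neither is a firm lower bound. The circle was called (edgeR adjusted p = 0.00501), where 0.714% of 2381 circRNAs tested were called higher. With no parental reads it passed the filter on reads through the induced libraries alone, so it could only have tested higher. No fit was had without an induced library, since reads were then left in fewer than 3 libraries. In experiment 1 the circle had 2, 4 and 0 reads in uninduced and 3, 1 and 0 in induced libraries. Those groups overlapped, with no reads in library 3 of either, and the circle was not called (log2 -0.65, SE 1.01, edgeR adjusted p = 0.965), as none of 1701 circRNAs was by edgeR or DESeq2, against 77 at an unadjusted p under 0.05.

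This circle made up 41.5% of ITPR2 back-splice reads in the induced cells of experiment 2 (22 of 53, exact 95% interval 28.1 to 55.9%) and 0 of 18 in parental cells, for which the exact interval reaches 18.5%. It made up 26.1% in uninduced cells (6 of 23, 10.2 to 48.4%) and 17.4% in induced cells of experiment 1 (4 of 23, 4.95 to 38.8%). These intervals cover counting error only, since reads from amplified fragments are not independent molecules. The other ITPR2 circles had 5, 5 and 8 reads in parental libraries and 17, 7 and 7 in induced ones. These raw reads overlapped, but they are not scaled to depth. Parental library 3 had 50261916 gene counts, and induced libraries 2 and 3 had 37663525 and 38009529. The overlap therefore does not show that the reads outside the junction were alike, and their difference was not tested.

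The end of exon 37 recurred in other circles. It was the donor of 29 of the 53 reads in induced cells of experiment 2, of 13 of 23 in uninduced and of 9 of 23 in induced cells of experiment 1, and of none of 18 in parental cells. This exon end was singled out after its counts were seen. The next circle by reads joined exon 37 to exon 20 (18 exons, chr12:26703180-26808785, 2629 bases), with 3 reads in each group of experiment 1, none in parental and 4 in induced cells. The start of exon 27 was used by 10, 7, 4 and 28 reads in uninduced, induced, parental and again induced cells, and the start of exon 6 by 0, 1, 1 and 12. Parental circles that began at exon 27 ended elsewhere, such as at exon 32, with 3 reads.

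**Figure D4:**
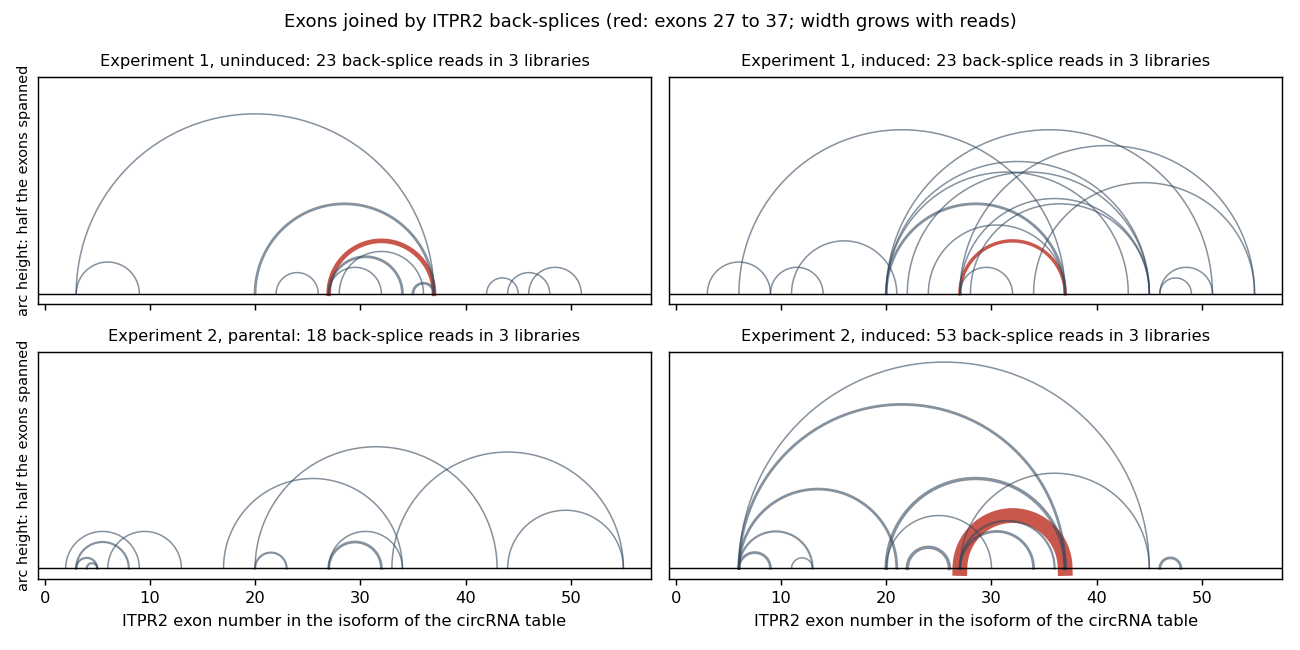
Exons joined by ITPR2 back-splices in each group, by exon number; each arc links the first and last exon of a circle, its width grows with the reads of 3 libraries, and red marks exons 27 to 37. The red arc is present in both groups of experiment 1 (6 and 4 reads) and in the induced cells of experiment 2 (22 reads), and is missing from the parental panel.

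ITPR2 circles held many exons. The median was 11 exons in experiment 1 and 9 in experiment 2, beside 4 over all exonic circRNAs in each. At least 10 exons were held by 56.0% of the 25 ITPR2 circRNAs of experiment 1 and 50% of the 24 of experiment 2, beside 12.1% and 12% of all. Most rested on few reads: 18 of the 25 and 9 of the 24 had a single read, and 8 circRNAs were seen in both experiments.

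ITPR1 circles were counted in experiment 1 alone. Its back-splice reads numbered 1, 6 and 1 in uninduced and 2, 5 and 3 in induced libraries, with a log2 difference of 0.22 (SE 0.77, edgeR adjusted p = 0.983). Exons 3 and 4 formed the leading circle (chr3:4558160-4562778, GRCh37, plus strand, 179 bases), with 1, 3 and 0 reads in uninduced and 2, 2 and 2 in induced libraries, and it was not called (log2 0.44, edgeR adjusted p = 0.965). In experiment 2 there were 0 back-splice reads beside 5718 parental and 8101 induced gene reads, which allows up to 0.525 and 0.370 per 1000 gene reads. The rate in experiment 1 was 0.815 ± 0.828 per 1000 in uninduced and 1.10 ± 0.521 in induced libraries (n = 3), so both limits of experiment 2 lay below those means, but above the rates of uninduced libraries 1 and 3 (0.308 and 0.367).

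The channel genes gave isolated reads. CACNA1D had 3 reads, all in induced library 3 of experiment 2: 2 for exons 4 to 9 and 1 for exons 2 to 3. CACNA1C had a circle of exons 2 to 3 with 1 read in uninduced library 2 and 1 in induced library 3 of experiment 2, and a circle of exons 4 to 5 with 1 read. CACNA1B had circles of exons 4 to 6 and 7 to 10 with 1 read each, and ITPR3 a circle of exons 47 to 48 with 2 reads. No difference was testable for them.

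The other genes of calcium signalling stood near the background of each experiment. Of 119 such genes outside the members, 100 were tested in experiment 1, with 8 called higher and 12 lower (20% called, beside 20.9% of all genes). The total of 20 fell to 5 without induced library 1 or induced library 3, 9 without uninduced library 2, 11 without uninduced library 1 and 13 without induced library 2, and was 31 without uninduced library 3. In experiment 2, 99 were tested, with 39 higher and 30 lower (69.7%, beside 65.0% of all genes).

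Pore genes outside the members were scarce. CACNA1I was the only other pore gene tested, in experiment 1, at 0.903 CPM in uninduced and 0.477 CPM in induced cells (edgeR adjusted p = 0.0630). CACNA1E, CACNA1F and CACNA1S averaged under 0.12 CPM in each group. The ryanodine receptor RYR2, the release channel of heart muscle and neurons, had the signs of ITPR2 but not its size of change. RYR2 fell by 0.32 in experiment 1 (SE 0.07, edgeR adjusted p = 0.0116). It rose by 2.16 in experiment 2 (SE 0.09, edgeR adjusted p = 7.47e-15), from 8.66 to 38.5 CPM, where ITPR2 rose by 0.30. The fall in experiment 1 was not called without induced library 1 (edgeR adjusted p = 0.0614) or 3 (0.0652). RYR1 and RYR3 were called in neither.

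Of the auxiliary subunits, which set how many pores reach the membrane and how they gate, 4 of 10 tested rose and 3 fell in experiment 2. CACNA2D3 rose by 1.13, CACNA2D1 by 1.06 and CACNB2 by 0.54 on the log2 scale, and CACNB4 fell by 0.28 in experiment 1, where 1 of 10 rose and 2 fell. The CACNB4 call was lost with library totals (edgeR adjusted p = 0.0611) and without uninduced library 2 (0.0529), induced library 1 (0.139) or induced library 3 (0.151). Among the phospholipase C genes, which make IP3, 3 of 10 rose and 5 fell in experiment 2, with PLCE1 up by 1.65, PLCH1 up by 1.12 and PLCB3 at -0.87. In experiment 1, 1 of 11 fell and none rose. Of the enzymes that remove IP3, none of 6 was called in experiment 1 (edgeR), against 2 at an unadjusted p under 0.05. In experiment 2, 3 of 7 rose, among them ITPKC (1.28) and IMPA2 (0.46). The IP3 kinase gene ITPKB stood at 19.8 CPM in parental and 0.0884 CPM in induced cells.

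IP3 receptor partners had 6 of 14 higher and 3 lower in experiment 2, and none higher and 3 of 16 lower in experiment 1. BCL2, whose protein binds IP3 receptors, rose by 1.43 in experiment 2. AHCYL2, a relative of the IP3 receptor regulator IRBIT, fell by 0.19 in experiment 1 and rose by 0.99 in experiment 2. HOMER2 and RNF170 fell by 0.22 and 0.25 in experiment 1. The AHCYL2 call held only without uninduced library 3 among the 6 libraries left out in turn (edgeR adjusted p from 0.0531 to 0.141 without the others) and was lost with no filter on low counts (0.0710). HOMER2 was not called without uninduced library 2 (0.0652), induced library 1 (0.0805) or induced library 3 (0.0731), nor RNF170 without uninduced library 1 (0.0857), induced library 1 (0.113) or induced library 3 (0.108).

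Calcium pumps and exchangers had 4 of 11 higher and 6 lower in experiment 2, and 1 higher and 3 lower of 11 in experiment 1. The sodium-calcium exchanger gene SLC8A1 stood at 12.8 CPM in parental and 0.0354 CPM in induced cells. ATP2A3 and SLC8B1 fell by 1.36 and 1.09 in experiment 2. ATP2B3 and ATP2B4 fell by 0.93 and 0.41 in experiment 1, also with each library left out. SLC8A3 fell by 0.54, a call that held only without uninduced library 3 among the libraries left out (edgeR adjusted p from 0.0511 to 0.124 without the others). Of the store-operated entry genes, 2 of 8 rose in experiment 1 (TMCO1 by 0.26 and STIM2, a sensor of stored calcium, by 0.22). The TMCO1 call was lost without uninduced library 1 (edgeR adjusted p = 0.0686) or 2 (0.0746) and without induced library 1 (0.152) or 3 (0.118). The STIM2 call held only without uninduced library 3 (0.0609 to 0.142 without the others), and was lost with no filter on low counts (0.0583). In experiment 2, 4 of 9 rose and 3 fell, with ORAI2 up by 0.55 and TMCO1 by 0.51.

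The mitochondrial uniporter genes had 2 of 7 higher (MCU by 0.28 and MCUB by 0.20) in experiment 2, and MICU3 lower (-0.26) in experiment 1. MICU3 was not called without uninduced library 2 (edgeR adjusted p = 0.113) or induced library 1 (0.13), 2 (0.0958) or 3 (0.0737). Calmodulin and its effectors had 9 of 19 higher and 6 lower in experiment 2, with CAMK2B up by 1.89, CAMK4 up by 0.82 and NFATC4 at -0.97. In experiment 1 NFATC2 fell by 0.74, and 17 of 19 were not called. NFATC2 was not called without uninduced library 2 (edgeR adjusted p = 0.0501), induced library 1 (0.0746) or induced library 3 (0.0645). Of the calcium-binding proteins of the endoplasmic reticulum, 3 of 9 rose in experiment 1 (SDF4 by 0.59, CALR by 0.45 and PDIA3 by 0.27) and none fell. SDF4 was called with each library left out. CALR was not called without induced library 1 (edgeR adjusted p = 0.0847) or 3 (0.0728), nor PDIA3 without uninduced library 1 (0.0519), induced library 1 (0.0758) or induced library 3 (0.0615). In experiment 2, HSP90B1 rose by 0.63, CALU rose by 0.51 and RCN1 fell by 0.25, with 3 of 9 higher and 2 lower.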

How the data were processed

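The submitters' processing notes name STAR 2.5.2b and the build GRCh37 (hg19) without saying how each was used. The circRNA caller and the strand setting are not given in the sources used here. The authors deposited raw counts per gene and raw back-splice read counts per circRNA, a table of each for either experiment. Ensembl identifiers without a symbol were named from an identifier table (11336 and 9029 genes). Some exon sizes in the circRNA tables were damaged (989 and 1024 exonic circRNAs), and these were left out of spliced lengths.

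Genes passed filterByExpr (minimum count 10, minimum total 15), were scaled by TMM and tested two-sided with edgeR 4.0.16 in R 4.3.3 (quasi-likelihood, Benjamini-Hochberg over all features). CPM uses effective library sizes and is not divided by gene length, so levels are not compared between genes. CircRNAs and host sums needed 10 reads and a read in 3 libraries, and took the gene table's effective sizes. Alternatives used DESeq2 1.42.0 and limma 3.58.1. The procedures were tested on simulated counts. The members and lists were chosen with earlier results of these data known. All members were named, and from each list in each experiment at most 3 called genes by size of change, if their mean log2 CPM was 1 or more. Low counts limit the precision of CACNA1A and of the circRNAs. Some genes that this rule names are not reported here.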

Additional observations from a re-analysis of the deposited data

Results flagged for a closer look

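For 7 members the effect of experiment 2 differed from that of experiment 1 in the fit over 12 libraries (edgeR, adjusted p under 0.05). The log2 effect of induced against parental cells exceeded that of induced against uninduced cells by 1.52 for CACNA1B, 1.41 for ITPR3, 0.92 for CACNA1D, 0.92 for ITPR1, 0.83 for CACNA1C, 0.83 for CACNA1H and 0.56 for ITPR2. The experiments differ in their control cells, and 52.2% of all genes tested showed such a difference.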

How the results depend on the processing

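The 6 calls among members in experiment 2 and the 6 between the induced groups held in number under every alternative run. Experiment 1 depended more on its settings. Without a filter on low counts 5 members were called, with CACNA1B (edgeR adjusted p = 0.0483) and CACNA1G (0.0373) added. Leaving out single libraries gave 1 to 4 members, 5 to 31 pathway genes and 1581 to 5231 genes in experiment 1. In experiment 2 it gave 14 to 41 circRNAs, 28 to 45 host sums and 0 to 1 hosts whose sum differed from the gene count, and limma-voom gave 0 such hosts. Same-numbered replicates correlated at 0.188, -0.105 and 0.028 in experiment 1 and at 0.0049, 0.019 and -0.0080 in experiment 2. Differently numbered ones ranged from -0.246 to 0.202 and from -0.030 to 0.024, so same numbers did not give the highest values. These values do not settle whether samples were paired. With the replicate block, experiment 1 had 2327 genes and 11 pathway genes called, and the adjusted p was 0.0749 for ITPR2 in experiment 1, 0.129 for its back-splice sum in experiment 2 and 0.0239 for the difference between experiments of CACNA1G. With a minimum of 5 reads that sum's adjusted p was 0.0512. Signs turned only where nothing was called. RBFOX2 in experiment 1 was -0.0014 with DESeq2's size factors, -0.019 with library totals and -0.0013 with DESeq2, and -0.036 to 0.063 with a library left out. With single libraries left out, CACNA1D ranged from -0.073 to 0.081 in experiment 1, CACNA1G from -0.0022 to 0.41 and RBFOX3 from -0.18 to 0.076 in experiment 2, and CACNA1B between the induced groups from -0.011 to 0.22. The back-splice sums of experiment 1 ranged from -0.25 to 1.45 for ITPR1 and from -0.59 to 0.56 for ITPR2, and against the host from -0.053 to 1.60 and from -0.35 to 0.81. The cause of these changes was not tested.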
